A study of Mus musculus with 6 samples.

Results

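The innate immune system treats DNA in the cytosol as a sign of infection. The enzyme cGAS, encoded by Mb21d1 (now named Cgas), binds such DNA and makes a cyclic dinucleotide that activates the membrane adaptor STING, encoded by Tmem173 (now named Sting1), which leads to type I interferon. Nucleases and related enzymes keep self nucleic acids below the level that these sensors detect, and loss of several of them in humans or mice gives an interferon-driven or lupus-like disease. The results below describe 10 genes of this system, chosen by name: the nuclease genes Trex1, Dnase1l3, Dnase2a, Rnaseh2a, Rnaseh2b and Rnaseh2c, the deoxynucleotide hydrolase gene Samhd1, the RNA editing gene Adar, and the sensing genes Mb21d1 and Tmem173. All 10 have a row in the table of 41669 genes.

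The study sequenced RNA of splenic B cells from the NZB/W F1 strain, a mouse hybrid that develops a lupus-like disease, and all animals were at the late stage. The cells were drawn from the spleen by positive selection on a column and cultured for 24 h with CpG, which activates B cells through Toll-like receptor 9. The 6 libraries came from 3 female and 3 male mice, 1 mouse each, and sex is the only labelled difference between the groups. Unstimulated cells, healthy mice and earlier stages were not analysed here, so no value bears on the effect of CpG or of disease, and the labels give no age.

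Values are estimated counts per 1000000 of each library's column total (CPM), and these totals ran from 24089561 to 35659883. The B cell genes Ms4a1 (1420 to 1660 CPM) and Pax5 (497 to 591 CPM) were high in all 6 libraries. Other defining B cell genes were far lower and uneven, with Cd79a at 4.61 to 29.4 CPM and Cd79b at 5.2 to 51.9 CPM, lowest in female replicate 3 for both. The 7 T cell markers summed to between 3.73 and 7.53 CPM and the 8 dendritic cell markers to between 6.43 and 12.2 CPM. Female replicate 3 stood apart on the first principal component (94.2, against -47.9 to 6.66 in the others). In that library the tested genes of the highest quartile of transcript GC content (53.13% and above) had a median deviation of -0.88 from the mean of the other libraries, in TMM-scaled log2 CPM, and those of the lowest quartile 0.47. Over all 6 libraries the median level was 12.8 CPM per kb of transcript in the lowest GC quartile and 1.27 in the highest. The part of GC content in the member levels below was not tested, except where a fit with its trend removed is given.

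Rnaseh2b and Samhd1 stood well above the rest. Compared per kb of the longest coding transcript, Rnaseh2b had a mean of 59.7 CPM per kb (47.0 to 69.7) and Samhd1 35.1 (18.8 to 48.8), and Rnaseh2b was the higher in 6 of 6 libraries. The third in order, Adar, had 2.61 CPM per kb (1.19 to 4.10), below Samhd1 in 6 of 6 libraries. Below Samhd1 the members lay close together. Dnase2a followed with 2.14 CPM per kb, Rnaseh2a with 1.79, Mb21d1 with 1.45 and Tmem173 with 1.34. None of the steps from Adar down to Rnaseh2c (0.866 CPM per kb) kept its order in more than 4 of 6 libraries. Dnase1l3 was lowest of the detected members at 0.394 CPM per kb, below Rnaseh2c in 5 of 6. With the median length of each gene's coding transcripts in place of the longest, Rnaseh2b and Samhd1 kept ranks 1 and 2 (96.2 and 52.2 CPM per kb), and Rnaseh2a moved from rank 5 to rank 3 (4.69).

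**Figure D1:**
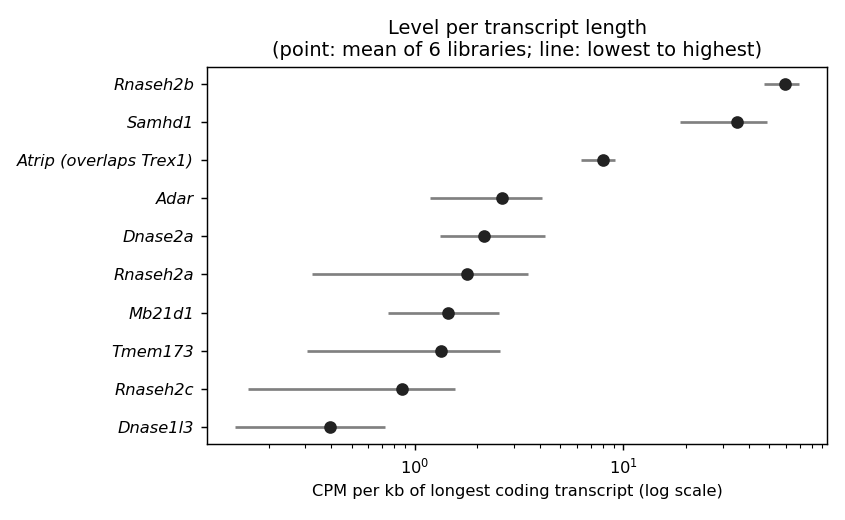
Mean CPM per kb of the longest coding transcript on a log axis for the 9 detected genes and for Atrip, which overlaps Trex1, with lines from the lowest to the highest of 6 libraries. Rnaseh2b (59.7) and Samhd1 (35.1) lie above the other 7 genes, whose means run from 0.394 to 2.61.

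Trex1 encodes the main DNA exonuclease of the mammalian cytosol, which degrades DNA before cGAS can bind it. It was listed at 0 in all 6 libraries, and this value alone does not show whether its RNA was absent. In GRCm38 the gene lies on chromosome 9 from 109057933 to 109059734 on the minus strand, inside the annotated span of Atrip on the same strand. Atrip is a DNA damage checkpoint gene, and 3 of its transcripts hold Trex1 sequence. In the GENCODE M21 transcripts, 1089 of the 1116 distinct stretches of 31 bases in the Trex1 transcripts (97.6%) also occur in Atrip transcripts. The Trex1 transcript of 1054 bases has no such stretch of its own. The other, of 1084 bases, has 27, and all of them lie in a single unbroken run and hold the same 5 bases. The middle of that run is shown here because the run is the part of Trex1 that reads could assign to this gene alone. Those 5 bases (87 to 91 of the transcript) are in capitals:

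Trex1 transcript bases 74 to 103: gagatggcccccaTGGTTcagcatgggctc

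Atrip, in turn, had 22.9, 23.5 and 16.1 CPM in female replicates 1 to 3 and 19.5, 21.8 and 19.1 CPM in male replicates 1 to 3. The sexes overlapped, with a log2 fold change of 0.17 (female over male). How many of these reads came from Trex1 sequence cannot be told from counts per gene, and no label or header names the transcript annotation behind the counts. Kat5, a histone acetyltransferase gene, was also listed at 0 in all 6 libraries. The cause of these values was not tested. Of all genes in the table, 21295 (51.1%) were at 0 in every library. Trex1 entered no test.

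The remaining 9 members passed the low-count filter and were tested between the sexes among 12172 genes. None was called in the edgeR fit at an FDR of 0.05, against 0.0575% of all tested genes (7 genes). At an unadjusted p below 0.05 there were 2 members of 9, Dnase1l3 and Samhd1, both lower in females, against 2.89% of all tested genes in either direction and 1.23% lower in females. DESeq2 called 0 members and 0.288% of the genes it tested, and placed 2 members below an unadjusted p of 0.05, against 3.86% of all genes. A negative log2 fold change (lower in females) was found for 8 of 9 members, against 49.9% of all tested genes. This count rests in part on female replicate 3, since without it 5 of 9 were negative, against 47.6% of all genes. It was 9 of 9 with libraries scaled by their totals only, where 66.5% of all genes were negative. The median was -0.20 for the members and 0.00 for all genes, and -0.31 and -0.12 when libraries were scaled by their totals only. The direction held in all 14 alternative fits for Dnase1l3, Samhd1 and Rnaseh2b, and turned in at least 1 of them for the other 6.

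In 3 of 9 members the female and male values did not overlap, all with females lower, against 7.55% of all tested genes lower in females, 2.69% higher and 10.2% in either direction. These were again Dnase1l3, Samhd1 and Rnaseh2b. With TMM factors, which correct for library composition, the same 3 did not overlap, and the shares of all tested genes were 4.57% lower and 4.41% higher in females. With RLE factors Rnaseh2b overlapped (81.1 to 88.3 CPM in females and 87.4 to 98.2 in males) while Dnase1l3 and Samhd1 did not, and the shares of all tested genes were 4.17% lower and 4.86% higher in females. In bulk RNA, fewer cells of a type and less RNA per cell cannot be told apart. Some markers of B cells and plasma cells also had no overlap between the sexes. Of 5 tested plasma cell markers, 2 were higher in every female than in every male, Prdm1 (22.1 to 61.5 against 11.7 to 12.9 CPM) and Igj (37.7 to 48.4 against 17.0 to 18.3 CPM). Xbp1, Sdc1 and Irf4 overlapped. The female mean was lower for Xbp1 (105 against 114 CPM) and Sdc1 (2.20 against 2.37), and higher for Irf4 (164 against 120). Of 8 B cell markers, Cr2 was higher in females (179 to 209 against 162 to 177 CPM) and Fcer2a lower (0.808 to 2.42 against 3.59 to 8.32 CPM). Their part in the member values was not tested.

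**Figure D2:**
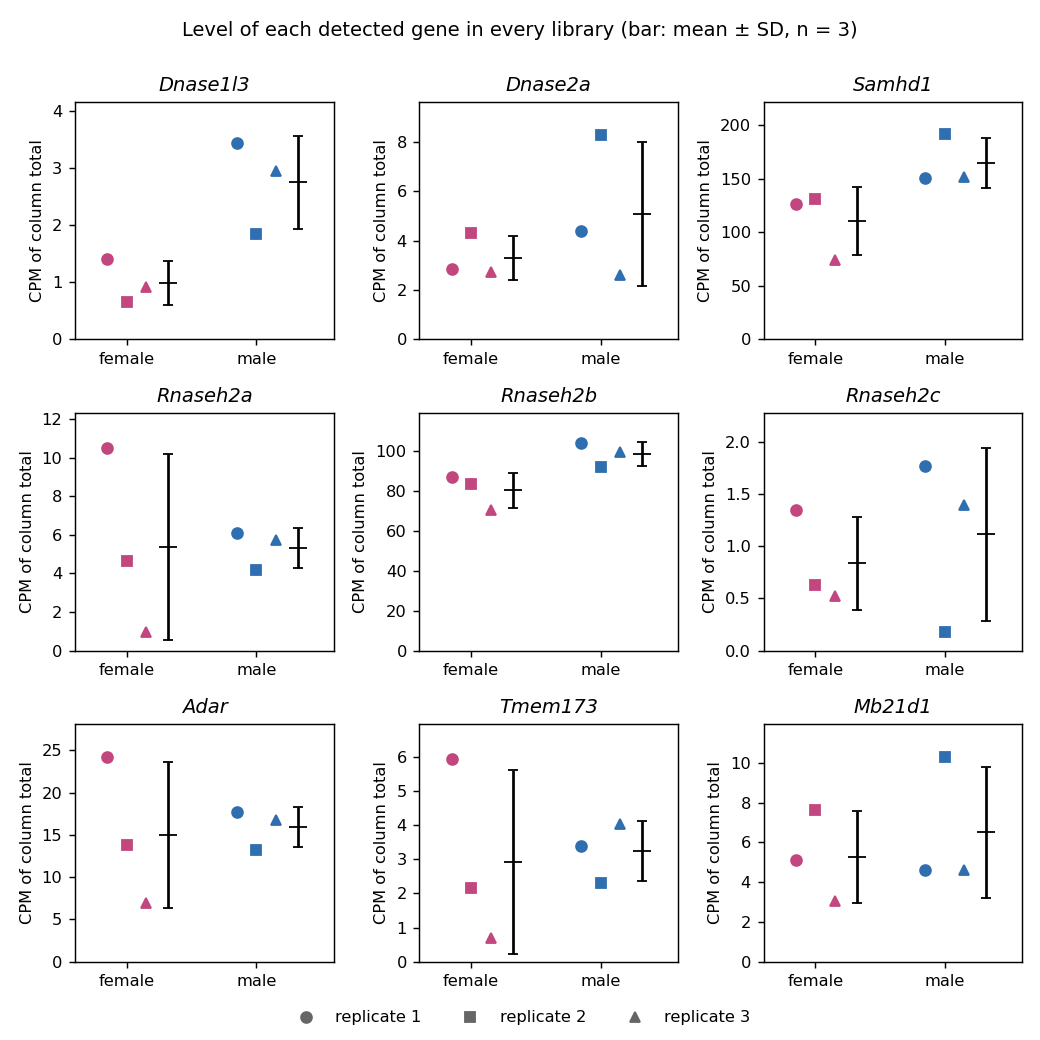
CPM of the column total in each library, 1 panel per detected gene with its own axis from 0, females on the left and males on the right, marker shape giving the replicate and the bar the mean ± SD of 3 libraries. In the panels of Dnase1l3, Samhd1 and Rnaseh2b all females lie below all males, while in those of Rnaseh2a, Adar and Tmem173 the females spread to both sides of the males.

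Dnase1l3 encodes a secreted DNase that cleaves DNA in chromatin and in vesicles shed by dying cells, and its loss gives anti-DNA antibodies and lupus in humans and mice. It had 1.41, 0.654 and 0.915 CPM in female replicates 1 to 3 and 3.44, 1.85 and 2.95 CPM in male replicates 1 to 3. Every female lay below every male, and female replicate 2 was lowest. The means were 0.994 ± 0.385 CPM in females and 2.75 ± 0.814 CPM in males (SD, n = 3 each), a ratio of 2.77 in favour of males. The fitted log2 fold change was -1.34 ± 0.43 (SE), with a 95% interval of -2.34 to -0.34, an edgeR unadjusted p of 0.015 and an adjusted p of 0.999. The difference is larger than the spread within the sexes but does not pass the correction over 12172 genes, among which Dnase1l3 ranked 103 by p. The level is low: these values rest on 34.0, 19.2 and 32.6 estimated counts in females and 108.6, 50.8 and 98.1 in males.

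With the length and GC trend of transcripts removed, the log2 fold change stayed at -1.34 (edgeR adjusted p = 0.946), and leaving out 1 library at a time gave -1.56 to -1.09. The unadjusted edgeR p was then 0.055 without female replicate 2, 0.063 without male replicate 1 and 0.0512 without male replicate 3. Dnase1l3 is known as a gene of macrophages and dendritic cells, so their markers are given here. The macrophage and monocyte markers, of which 11 of 12 had a row in the table and 3 passed the low-count filter, summed to 4.99, 7.87 and 4.02 CPM in female replicates 1 to 3 and to 1.45, 1.26 and 1.41 CPM in male replicates 1 to 3. This sum was thus higher in every female than in every male, while Dnase1l3 was lower. Lyz2 took 2.20 to 3.32 CPM of the sum in females and 0.282 to 0.390 in males. Of the 3 tested markers, Lyz2 and Spic were higher in every female than in every male. The third, Cd68, overlapped, with 0.197 to 0.906 CPM in females and 0.479 to 0.823 in males. The defining genes Csf1r and C1qa did not exceed 0.137 and 0.0678 CPM in any library. The dendritic cell markers, 8 of 8 in the table and 4 tested, summed to 7.62 to 12.2 CPM in females and 6.43 to 11.8 in males, with overlap, and of these Itgax did not exceed 0.139 CPM. The part of these cell types in the Dnase1l3 difference was not tested. The gene lies on chromosome 14 from 7964533 to 7994573, and only 0.361% of its stretches of 31 bases occur in another gene.

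Dnase2a encodes the acid DNase of lysosomes, which digests the DNA of engulfed cells and viruses. It had 2.86, 4.30 and 2.72 CPM in female replicates 1 to 3 and 4.37, 8.28 and 2.59 CPM in male replicates 1 to 3. The sexes overlapped, and the highest value came from male replicate 2. Females over males gave a log2 fold change of -0.48 ± 0.46 (95% interval -1.55 to 0.59, edgeR adjusted p = 0.999). Without male replicate 2 it was 0.06, so the direction rests on that library. The gene lies on chromosome 8 from 84908560 to 84922915, close to Rnaseh2a (84956610 to 84969767).

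Samhd1 encodes a hydrolase that breaks down deoxynucleoside triphosphates and so limits DNA synthesis, including reverse transcription, outside S phase. It had 126, 131 and 73.7 CPM in female replicates 1 to 3 and 151, 192 and 152 CPM in male replicates 1 to 3. All females lay below all males, with female replicate 3 lowest and male replicate 2 highest. The means were 110 ± 31.9 CPM in females and 165 ± 23.1 CPM in males (SD, n = 3 each). The log2 fold change was -0.47 ± 0.19 (SE), with a 95% interval of -0.91 to -0.04, an edgeR unadjusted p of 0.0367 and an adjusted p of 0.999. With the length and GC trend removed it was -0.43. The unadjusted p passed 0.05 with 1 library left out in 5 of 6 cases. It was 0.128 without male replicate 2 (log2 fold change -0.35), 0.0623 without female replicate 3 (-0.34), and 0.0512, 0.0516 and 0.0588 without female replicate 1, male replicate 1 and male replicate 3, all in the edgeR fit. Samhd1 lies on chromosome 2 from 157097533 to 157135265, and 3.86% of its stretches of 31 bases occur in another gene.

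RNase H2 removes RNA from RNA:DNA hybrids and single ribonucleotides from DNA, and is built from a catalytic subunit (Rnaseh2a) and 2 accessory subunits (Rnaseh2b and Rnaseh2c). The complex holds 1 of each. The subunit transcripts were far from equal. Per kb of the longest coding transcript, Rnaseh2b made up 92.5 to 98.3% of the summed CPM of the 3 subunits. It exceeded Rnaseh2a by 16.5-fold (female replicate 1) to 145-fold (female replicate 3). The upper end rests on 34.5 estimated counts of Rnaseh2a in female replicate 3, the library that stood apart. With median transcript lengths the means were 96.2 CPM per kb for Rnaseh2b and 4.69 for Rnaseh2a, against 59.7 and 1.79 with the longest. Transcript GC content was 45.25% for Rnaseh2b, 54.18% for Rnaseh2a and 58.08% for Rnaseh2c, so the last 2 fall in the highest GC quartile of tested genes, in which levels were low in general. The part of GC content in this imbalance was not tested. Rnaseh2a and Rnaseh2c also shared 21.2% and 23.8% of their stretches of 31 bases with other genes, against 2.36% for Rnaseh2b. For Rnaseh2c the partner was Kat5, on the other strand, and for Rnaseh2a most often Gm49661. No source states that strand was used in counting.

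Rnaseh2b had 86.8, 83.2 and 70.3 CPM in female replicates 1 to 3 and 104, 92.0 and 99.2 CPM in male replicates 1 to 3. Every female lay below every male, but by a narrow margin. The means were 80.1 ± 8.67 CPM for females and 98.4 ± 6.08 CPM for males (SD, n = 3 each), and the log2 fold change was -0.16 ± 0.13 (SE), with a 95% interval of -0.47 to 0.14 and an edgeR adjusted p of 0.999. It was the most even member, its highest library being 1.48 times its lowest, and its interval leaves room for a difference of at most 1.38-fold lower or 1.10-fold higher in females. The gene lies on chromosome 14 from 62292589 to 62372992.

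Rnaseh2a had 10.5, 4.63 and 0.967 CPM in female replicates 1 to 3 and 6.10, 4.16 and 5.74 CPM in male replicates 1 to 3. The females spanned the whole range, with both the highest and the lowest library, and the highest was 10.8 times the lowest. The log2 fold change was 0.03 ± 0.65 (95% interval -1.48 to 1.54, edgeR adjusted p = 1.0). It was -0.80 without female replicate 1, -0.12 without male replicate 2 and 0.49 without female replicate 3. Prdx2, a peroxiredoxin gene that overlaps Rnaseh2a on the other strand, had 16.6, 7.04 and 1.03 CPM in female replicates 1 to 3 and 8.45 to 13.0 CPM in males.

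Rnaseh2c had 1.35, 0.630 and 0.525 CPM in female replicates 1 to 3 and 1.77, 0.180 and 1.39 CPM in male replicates 1 to 3. The value of male replicate 2 rests on 4.9 estimated counts, close to the floor of 3 counts. The sexes overlapped, with a log2 fold change of -0.31 ± 0.75 (95% interval -2.05 to 1.43, edgeR adjusted p = 0.999), and 0.18 without male replicate 1.

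Adar encodes the enzyme that turns adenosine into inosine in double-stranded RNA, which keeps self RNA from being read by the sensor MDA5. It had 24.2, 13.8 and 7.0 CPM in female replicates 1 to 3 and 17.7, 13.2 and 16.8 CPM in male replicates 1 to 3. The males lay within the female range, and the fitted log2 fold change was -0.01 ± 0.35 (95% interval -0.83 to 0.81, edgeR adjusted p = 1.0), -0.43 without female replicate 1 and 0.26 without female replicate 3, with either sign in the other leave-outs. The interferon-inducible and constitutive isoforms of Adar start at different promoters and cannot be told apart in counts per gene. The gene lies on chromosome 3 from 89715022 to 89753446, and shares 20.8% of its stretches of 31 bases with Chrnb2, which did not exceed 0.244 CPM.

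The sensing pair was low. Mb21d1 had 5.12, 7.62 and 3.03 CPM in female replicates 1 to 3 and 4.61, 10.3 and 4.62 CPM in male replicates 1 to 3. The sexes overlapped, with replicate 2 the highest of each sex. Its log2 fold change was -0.20 ± 0.44 (95% interval -1.22 to 0.82, edgeR adjusted p = 0.999), and 0.30 without male replicate 2 and 0.0021 without female replicate 3. Tmem173 had 5.92, 2.16 and 0.702 CPM in female replicates 1 to 3 and 3.39, 2.30 and 4.04 CPM in male replicates 1 to 3. The males lay within the female range here too. The log2 fold change was -0.12 ± 0.63 (95% interval -1.59 to 1.35, edgeR adjusted p = 0.999), -1.04 without female replicate 1, and positive without male replicate 3 (0.08), female replicate 3 (0.30) or female replicate 2 (0.03). Per kb, Mb21d1 exceeded Tmem173 in 3 of 6 libraries, by 2.01 to 2.54 times in female replicates 2 and 3 and male replicate 2, and the ratio was 0.492 to 0.772 in the other 3.

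**Figure D3:**
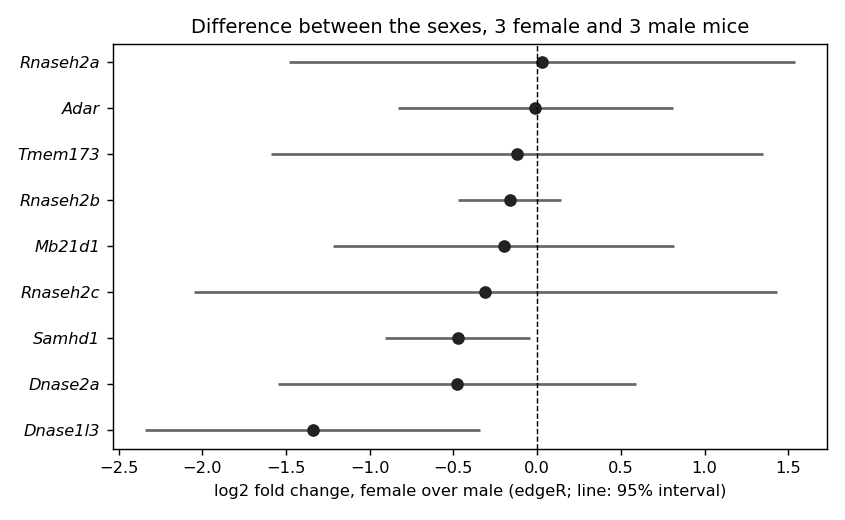
Fitted log2 fold change (female over male) of the 9 tested genes with the 95% interval of the edgeR fit, sorted by size. The intervals of Dnase1l3 (-2.34 to -0.34) and Samhd1 (-0.91 to -0.04) lie below 0 before correction over all genes, and those of the other 7 genes include 0.

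The intervals set what these data can show. For Rnaseh2a, Rnaseh2c and Tmem173 they reach from at least 2.79-fold lower to at least 2.55-fold higher in females, so even a clear difference between the sexes was not detectable here. For Adar the interval runs from 1.78-fold lower to 1.75-fold higher, and for Mb21d1 from 2.33-fold lower to 1.76-fold higher.

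Some members shared a profile over the libraries. Rnaseh2a, Adar and Tmem173 had nearly the same profile (Pearson r of 1.00, 0.97 and 0.98 for the 3 pairs, on log2(CPM + 1) over 6 libraries that share depth and composition effects). All 3 were highest in female replicate 1 and lowest in female replicate 3. Mb21d1 and Dnase2a formed another pair (r = 0.84), highest in male replicate 2. Among the 3 genes with no overlap between the sexes, r was 0.87 for Dnase1l3 and Rnaseh2b and 0.83 for Samhd1 and Rnaseh2b. It was 0.56 for Dnase1l3 and Samhd1. These genes were grouped by a shared order of the sexes, which by itself favours a positive correlation. In 6 of 9 members the lowest library was female replicate 3, as in 51.4% of all tested genes.

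The profile of Rnaseh2a, Adar and Tmem173 is shared widely. A correlation above 0.9 with Rnaseh2a was found for 1445 of 7451 compared genes (19.4%), with Adar for 1340 and with Tmem173 for 13.6%, but with Mb21d1 for 1.78% and with Dnase1l3 for 0.872%. The 2 most alike were the ribosomal protein gene Rpl7a and the exosome gene Exosc7 for Rnaseh2a (both r = 0.999), the mitochondrial ribosome genes Mrpl10 and Mrpl17 for Adar (1.000 and 0.999), and Gid8 and Supt7l for Tmem173 (0.998 and 0.996). Among B cell genes, Cd79a, Cd79b and Cd22 followed the same profile, with r of 0.99, 0.95 and 0.92 against Rnaseh2a and GC contents of 54.9%, 54.2% and 52.1%. Fcer2a (r = 0.43, GC content 51.6%), Cr2 (0.28, 41.4%), Pax5 (-0.52, 50.6%) and Ms4a1 (-0.55, 40.6%) did not. Among the others, Snx2 and Cnksr3 were most like Dnase1l3 (0.995 and 0.987), Lrrc8d and Ino80e most like Samhd1 (0.999 and 0.998), and Tpmt and Med20 most like Rnaseh2b (0.992 and 0.983). For Mb21d1 they were Atxn2 and Lipa (0.992 and 0.985), for Dnase2a Tmem128 and Ttc1 (0.994 and 0.983), and for Rnaseh2c Racgap1 and Zcchc8 (0.994 and 0.992). These pairs were picked as the highest of 7451 or 7452 comparisons per member, over only 6 libraries. High values are therefore expected from the selection alone, and how often they would arise without a shared cause was not tested.

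**Figure D4:**
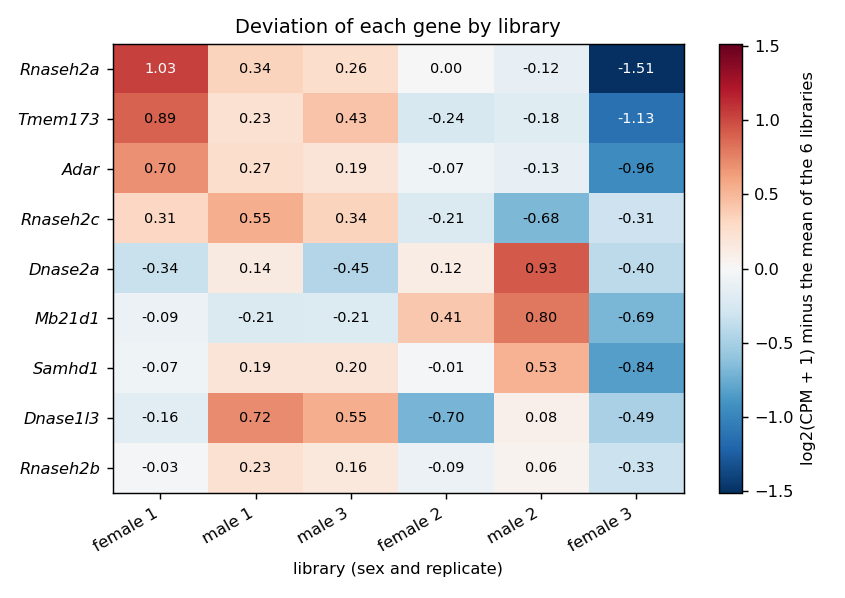
Deviation of log2(CPM + 1) from each gene's mean over the 6 libraries, with libraries in columns and genes in rows, red above and blue below the mean. Rnaseh2a, Tmem173 and Adar run from their highest value in female replicate 1 (1.03, 0.89 and 0.70) to their lowest in female replicate 3 (-1.51, -1.13 and -0.96), while Mb21d1 and Dnase2a peak in male replicate 2 (0.80 and 0.93).

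Several members are known to be induced by interferon, so their promoters were searched, from 250 bases before to 50 after each RefSeq start in GRCm38.p6. RefSeq promoters were matched for 7 of 10 members, with 10 starts. The core of the interferon-stimulated response element, taken as GAAA, any 2 bases and GAAA on either strand, occurred in 0 of the 10 windows and in 3.44% of all 32851 promoters. The gamma-activated site, taken as TTC, any 3 bases and GAA, a pattern that is its own reverse complement, occurred in 3 of the 10 and in 8.30% of all promoters. Those 3 windows are shown because they hold the only matches, which are in capitals.

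Samhd1, chr2:157135047-157135346, minus strand: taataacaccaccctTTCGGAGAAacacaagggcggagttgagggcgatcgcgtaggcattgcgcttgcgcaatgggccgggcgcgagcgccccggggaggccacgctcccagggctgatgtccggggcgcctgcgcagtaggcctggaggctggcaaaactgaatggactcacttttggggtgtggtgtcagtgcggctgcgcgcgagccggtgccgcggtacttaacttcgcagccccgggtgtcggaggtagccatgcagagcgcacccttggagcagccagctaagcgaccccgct
Rnaseh2a, chr8:84966027-84966326, minus strand: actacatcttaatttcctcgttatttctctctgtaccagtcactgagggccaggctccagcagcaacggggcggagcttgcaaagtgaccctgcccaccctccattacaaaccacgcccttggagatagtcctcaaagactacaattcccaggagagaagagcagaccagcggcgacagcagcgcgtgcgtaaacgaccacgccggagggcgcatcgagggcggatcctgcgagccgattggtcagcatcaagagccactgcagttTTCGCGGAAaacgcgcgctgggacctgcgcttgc
Adar, chr3:89730468-89730767, plus strand: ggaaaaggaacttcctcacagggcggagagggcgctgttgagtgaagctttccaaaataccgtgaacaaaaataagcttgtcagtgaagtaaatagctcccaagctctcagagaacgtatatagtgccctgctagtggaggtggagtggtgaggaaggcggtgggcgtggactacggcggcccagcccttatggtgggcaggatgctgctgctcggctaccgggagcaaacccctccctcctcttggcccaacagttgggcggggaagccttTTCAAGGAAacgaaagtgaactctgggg

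The match in Samhd1 lies near the upstream end of its window, and those in Rnaseh2a and Adar lie just after the start. A match is a run of letters and not a measured site. Only exact matches were counted, so variant forms of either element inside these windows were missed. For example, the run gaaagtgaac near the end of this Adar window differs from the response element core only in its last base. No match therefore does not show that an element is absent, and it says nothing about a factor outside these windows.

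Other genes of the system, grouped by lists, gave no call at an FDR of 0.05 in the edgeR fit. The signs of each list are from this fit, in which 49.9% of all tested genes were negative. How far they rest on female replicate 3 or on GC content was not tested. Of other nucleases and nucleotide hydrolases, 19 of 24 were tested, 9 positive and 10 negative, with a median log2 fold change of 0.00, and 0 had an unadjusted p below 0.05. Rad50 and Nbn, of the DNA break complex, were the most abundant, at 182 ± 10.8 and 105 ± 3.59 CPM in females and 195 ± 18.5 and 113 ± 17.7 in males. Isg20, an interferon-induced exonuclease gene, had 0.276 ± 0.00509 and 0.615 ± 0.261 CPM, and Dffb, the caspase-activated DNase gene, 8.35 ± 2.70 and 12.6 ± 6.00.

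Genes of DNA sensing and STING signalling numbered 25 tested of 30, with 10 positive, 15 negative and a median of -0.06. Only 1 had an unadjusted p below 0.05. This was G3bp1, whose product helps cGAS bind DNA, which had 401, 400 and 406 CPM in female replicates 1 to 3 and 293 to 373 CPM in males. The sexes did not overlap, with females higher (edgeR log2 fold change 0.42 ± 0.17, adjusted p = 0.999). In CPM of the column total, 5 of the 25 were lower in females with no overlap, against 7.55% of all tested genes. Only 1 of 25 was higher with no overlap, against 2.69%. Among the 5 lower was Nmi, an interferon-induced gene, at 8.72, 8.77 and 4.72 CPM in female replicates 1 to 3 and 9.26 to 14.1 CPM in males. The counts lower were 1 of 19 for the other nucleases and 3 of 21 for RNA sensing genes. They were 5 of 15 for interferon-stimulated genes and 1 of 20 for DNA replication genes. Those lists had 0 genes higher with no overlap. The lists share some genes, so the same gene can stand in more than 1 of these counts. No such count was made for the lists with TMM factors. Prkdc, a kinase gene of DNA break repair, had 205 ± 9.37 and 219 ± 36.3 CPM.

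RNA sensing genes and partners of ADAR had 21 tested of 22, with 4 positive, 17 negative and a median of -0.27, and 0 below an unadjusted p of 0.05. Ilf2, of a double-stranded RNA binding complex, was at 116 ± 13.0 CPM in females and 114 ± 7.24 in males. Trim25, which acts with the RNA sensor RIG-I, was at 84.8 ± 22.2 and 104 ± 10.7 CPM. Oas1a, a sensor of double-stranded RNA, was low at 0.422 ± 0.330 and 1.19 ± 0.199 CPM. In female replicate 3 it had 0.0829 CPM, just below the floor of 3 counts (0.0841 CPM in that library). Rnf135 was at 2.64 ± 0.725 and 4.87 ± 1.68 CPM.

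Interferon-stimulated genes, which STING signalling can raise through type I interferon, had 15 tested of 24. Of these, 2 were positive and 13 negative, with a median of -0.63. The source of any interferon in these cultures was not tested. Only 1 of the 15 was below an unadjusted edgeR p of 0.05, the antiviral gene Ifit1. It had 0.162 ± 0.0558 CPM in females and 1.02 ± 0.848 in males. The edgeR log2 fold change of Ifit1 was -2.43 ± 0.75, with an adjusted p of 0.999. Its female values were 0.124, 0.136 and 0.226 CPM in replicates 1 to 3, where the floor of 3 counts equals 0.125, 0.102 and 0.0841 CPM. Male replicate 2, at 1.99 CPM, lay well above male replicates 1 and 3 (0.413 and 0.661). Trim30a was abundant, with 165 ± 27.8 and 213 ± 31.4 CPM and a log2 fold change of -0.22, while Mx2 was low at 0.481 ± 0.0990 and 1.44 ± 1.13. This list was lower in females in earlier results from these libraries, so its direction here is no independent evidence.

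DNA replication genes, given because RNase H2 and SAMHD1 act on replicating DNA and on its nucleotide supply, were all tested (20 of 20). There were 7 positive and 13 negative, with a median of -0.04 and 0 below an unadjusted p of 0.05. Pcna, the sliding clamp, had 1120 ± 72.6 CPM in females against 1240 ± 81.1 in males. The helicase gene Mcm4 had 653 ± 48.3 and 671 ± 25.3 CPM. Rfc4, a clamp loader gene, had 136 ± 18.6 and 169 ± 15.6 CPM, and the ligase gene Lig1 57.5 ± 29.2 and 75.6 ± 10.2. In all 4 of these genes female replicate 1 was the highest female and female replicate 3 the lowest, as for Rnaseh2a. The males differed: male replicate 2 was the highest male for Pcna, Mcm4 and Rfc4, but the lowest for Lig1 and Rnaseh2a. Female replicate 3 was the lowest library in 51.4% of all tested genes.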

How the data were processed

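The authors deposited estimated counts for 41669 gene symbols in 6 libraries, 1 column per mouse, not scaled to a common depth. The tools kallisto and DESeq2 and the build GRCm38.p6 are named, with no role, per the submitters' processing notes. No version, annotation or setting is stated there. Library totals ran from 24089561 to 35659883, so 3 counts, used as a floor for counting error only, equal 0.0841 to 0.125 CPM.

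Levels are CPM of the column total. For tests the counts were rounded and fitted by edgeR 4.0.16 in R 4.3.3. Genes were filtered by filterByExpr and scaled by TMM factors, the quasi-likelihood test used a model of sex alone, and p-values were adjusted by Benjamini-Hochberg over 12172 genes. The standard error is the log2 fold change divided by the square root of F. Alternatives were DESeq2 1.42.0, limma-voom (limma 3.58.1), RLE factors, library totals, other filters, a block for the replicate number, leaving out each library in turn, and removal of a length and GC trend (natural splines, 4 degrees of freedom each, 98.7% of tested genes).

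Transcript lengths, GC content, positions and stretches of 31 bases are from GENCODE M21, which matched 96.4% of symbols and is not known to be the authors' annotation. Promoters are RefSeq's, build GRCm38.p6. Figures were drawn with matplotlib 3.10.9.

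The members, lists and tests were chosen with earlier results of these data known. All members are named. From each other list the 2 genes with the highest mean CPM and the 2 with the smallest p are named, and for each tested member the 2 genes, at 5 CPM or more, with the highest correlation. Prdx2, Kat5, Chrnb2, Atrip, Gm49661, Spic, Cd68, Prdm1, Igj, Xbp1, Sdc1, Irf4, Cr2 and Fcer2a were chosen after their values or overlaps were seen. Some genes that this rule or the marker lists would name are not reported here.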

Additional observations from a re-analysis of the deposited data

How the results depend on the processing

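No member was called in any of the 14 alternative fits, where the smallest adjusted p of any member was 0.405 (Dnase1l3 without female replicate 1). Of 126 member values under the alternatives 22 changed sign, none of them for Dnase1l3, Samhd1 or Rnaseh2b. The log2 fold change of Rnaseh2a was -0.44 with limma-voom, -0.0018 with library totals only, -0.34 with the replicate block and -0.80 to 0.49 leaving out 1 library. That of Rnaseh2c was 0.07 with limma-voom, 0.0069 with the replicate block, 0.05 with the length and GC trend removed and -0.81 to 0.18 leaving out 1 library. That of Adar was 0.0025 with DESeq2, 0.0026 with RLE factors, 0.04 with the trend removed and -0.43 to 0.26 leaving out 1 library. Leaving out 1 library gave -0.80 to 0.06 for Dnase2a, -1.04 to 0.30 for Tmem173 and -0.55 to 0.30 for Mb21d1. Dnase2a was at -0.18 with the trend removed and -0.32 with limma-voom, against -0.48, and Tmem173 at -0.50 with limma-voom, -0.41 with the replicate block and -0.08 with the trend removed, against -0.12. For the changes of sign the cause was not tested.

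Over all genes, 7 were called, against 35 with DESeq2, 11 with no low-count filter, 11 with the length and GC trend removed and 4 to 12 leaving out 1 library (4 without male replicate 1, male replicate 2 or female replicate 2, and 12 without female replicate 1 or 3). The members' median log2 fold change stayed negative, from -0.50 to -0.12. With the replicate block 7 genes and 0 members were called. The deviations of same-numbered libraries had correlations of 0.222, 0.0423 and 0.0695. The same-numbered male was the best match of female replicates 1 and 2, while female replicate 3 correlated best with male replicate 2 (0.12). These values do not settle whether same-numbered libraries are pairs. No label names a pairing, so the main fit did not use the shared numbers. The lowest single value of a detected member, Rnaseh2c in male replicate 2, rests on 4.9 estimated counts.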
